A study of Mus musculus with 13 samples.

Results

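Glycolysis turns glucose into pyruvate in the cytosol, and lactate dehydrogenase passes that pyruvate on to lactate when it is not oxidised in mitochondria. The committed step is made by 6-phosphofructo-1-kinase, and its strongest activator, fructose 2,6-bisphosphate, is made and removed by a separate family of bifunctional enzymes to which Pfkfb3 belongs. Epidermis takes up much of its glucose through the transporter Slc2a1 and releases much of it as lactate, while skeletal muscle has a phosphofructokinase isoform of its own, Pfkm.

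The 10 genes followed here cover those roles: the transporter Slc2a1, the hexokinases Hk1 and Hk2, the glucose-6-phosphate isomerase gene Gpi1, the phosphofructokinases Pfkm, Pfkl and Pfkp, the activator-forming enzyme Pfkfb3, the phosphoglycerate kinase Pgk1 and the lactate dehydrogenase subunit Ldha. Each gene was represented by its brightest probe set that the platform annotation gives to that gene alone. Of the 10 genes, 9 had such a probe set, out of 19938 genes with one, and Gpi1 was not analysed here. All 9 passed the filter on dim genes, which kept 14953 genes.

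The study followed whole back skin through day and night. The mice were male C57Bl6 at postnatal day 46, an age at which the back hair follicles rest in telogen. They were kept in 12 h of light and 12 h of darkness with chow always available, and ZT0 is the time the lights came on. Skin was taken every 4 h from hour 2 to hour 50, and each of the 13 arrays measured an equal mixture of RNA from 3 mice. ZT2 has 3 arrays (hours 2, 26 and 50) and ZT6, ZT10, ZT14, ZT18 and ZT22 have 2 arrays each, a day apart, which gives 7 arrays in the light and 6 in the dark. No genotype or treatment sets any array apart, so time is the only contrast. Each array is its own pool, so the errors below measure the spread between pools and not between mice. Intensities have no absolute unit and depend on the probes, so levels are compared between arrays for a gene and not between genes.

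The arrays shared a scale, with medians between 353.8 and 392.8, and correlated with each other at 0.941 to 0.994 over the 19938 genes. Basal and suprabasal keratinocyte markers were measured throughout, and their summed intensity varied by 1.09 and 1.17 times over the arrays. Some arrays stood apart. The array of hour 46 had a summed hair shaft keratin intensity of 33705, against 2481 to 4125 on the other arrays, and the array of hour 2 had the lowest summed fibroblast, adipocyte and macrophage markers. Summed intensities of 8 liver markers varied 5.94 times, from 14072 at hour 46 to 83647 at hour 10. Of 23 skeletal muscle markers all were measured and none was at 0. Their summed intensity ran from 139430 to 175644 in the light and from 119090 to 161130 in the dark, lowest at hour 46. The part of these cell types in the values below was not tested except where a value is given. In whole tissue, fewer cells of a type and less RNA per cell cannot be told apart.

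The DNA just upstream of these genes is shown first, since clock transcription factors act through short motifs there and the values below are set beside those of clock genes. RefSeq lists 16 transcription starts for the 10 genes, and the 250 bases before each start were searched on both strands for CACGTG (the E-box bound by CLOCK and BMAL1), TTATGTAA (the D-box bound by DBP and TEF), AGGTCA (the core bound by ROR and REV-ERB proteins) and ACGTG (the core of the hypoxia response element, which also lies inside every CACGTG). The E-box stood in 3 of the 16 windows, those of Pfkfb3, Ldha and Pfkm, and 6.02% of all 32851 mouse windows hold it. In the lines below the E-box is in capitals with 10 bases on each side, read 5′ to 3′ along the gene's strand, in build GRCm38.p6.
Pfkfb3, chr2:11502128-11502153, minus strand, E-box 53 bases before 1 of 2 starts, the one inside the gene: cccttctctcCACGTGaaagggggct
Ldha, chr7:46845649-46845674, plus strand, E-box 145 bases before the first of 2 starts: tgtcgcagcaCACGTGgagccactct
Ldha, chr7:46845746-46845771, plus strand, E-box 48 bases before the same start: gcccagcctaCACGTGggttcccgca
Pfkm, chr15:98092443-98092468, plus strand, E-box 136 bases before the first of 4 starts, the farthest upstream: ttaagtatgcCACGTGaagtaagtaa

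The whole Pfkfb3 window, chr2:11502091-11502340 on the minus strand, shows what surrounds its E-box (capitals), and 60.4% of its bases are G or C.
Pfkfb3, 250 bases before the start: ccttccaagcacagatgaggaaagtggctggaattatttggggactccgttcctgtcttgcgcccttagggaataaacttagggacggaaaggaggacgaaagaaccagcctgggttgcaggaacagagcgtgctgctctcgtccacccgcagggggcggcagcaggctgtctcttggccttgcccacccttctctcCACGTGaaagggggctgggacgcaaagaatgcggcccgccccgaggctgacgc

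The D-box stood in 0 of the 16 windows, as against 0.819% of all windows, and AGGTCA in 1, a Pfkm window, as against 14% of all windows. The ACGTG core stood in 8 windows of 6 genes, and 16.6% of all windows hold it. The windows with the core held from 36.4% (Pfkm) to 69.6% (Hk2) G or C. Most of them lay above the median of all windows, 52.4%, and the part of this in the count was not tested. The window of Pfkp (chr13:6648772-6649021, minus strand) held none of the 4 motifs. A match is a stretch of letters and not a measured binding site, and a window without a match says only that the letters are not in it. Of the 3 genes with an E-box in these windows, Pfkfb3 followed a 24 h rhythm, and Ldha and Pfkm did not pass the test.

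A 24 h rhythm was called for Pfkfb3 and Pfkp, which makes 2 of the 9 genes. Pfkfb3 was highest in the middle of the light phase, with a fitted peak 2.25 times its trough, and Pfkp was highest near the end of the dark phase, with a fitted peak 1.45 times its trough. Over all 14953 genes tested, 318 were called, or 2.13% (limma, F test on a cosine and sine of 24 h, Benjamini-Hochberg adjusted p under 0.05). The 9 genes were chosen with earlier results of these data known, so 2 of 9 beside 2.13% is not a test of the group. The Pfkp call was also lost in 16 of 25 alternative settings. The median fitted peak-to-trough difference was 0.18 in log2 for the 9 genes and 0.19 for all genes tested. A fitted peak-to-trough difference is never negative, so small values do not show a rhythm.

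**Figure D1:**
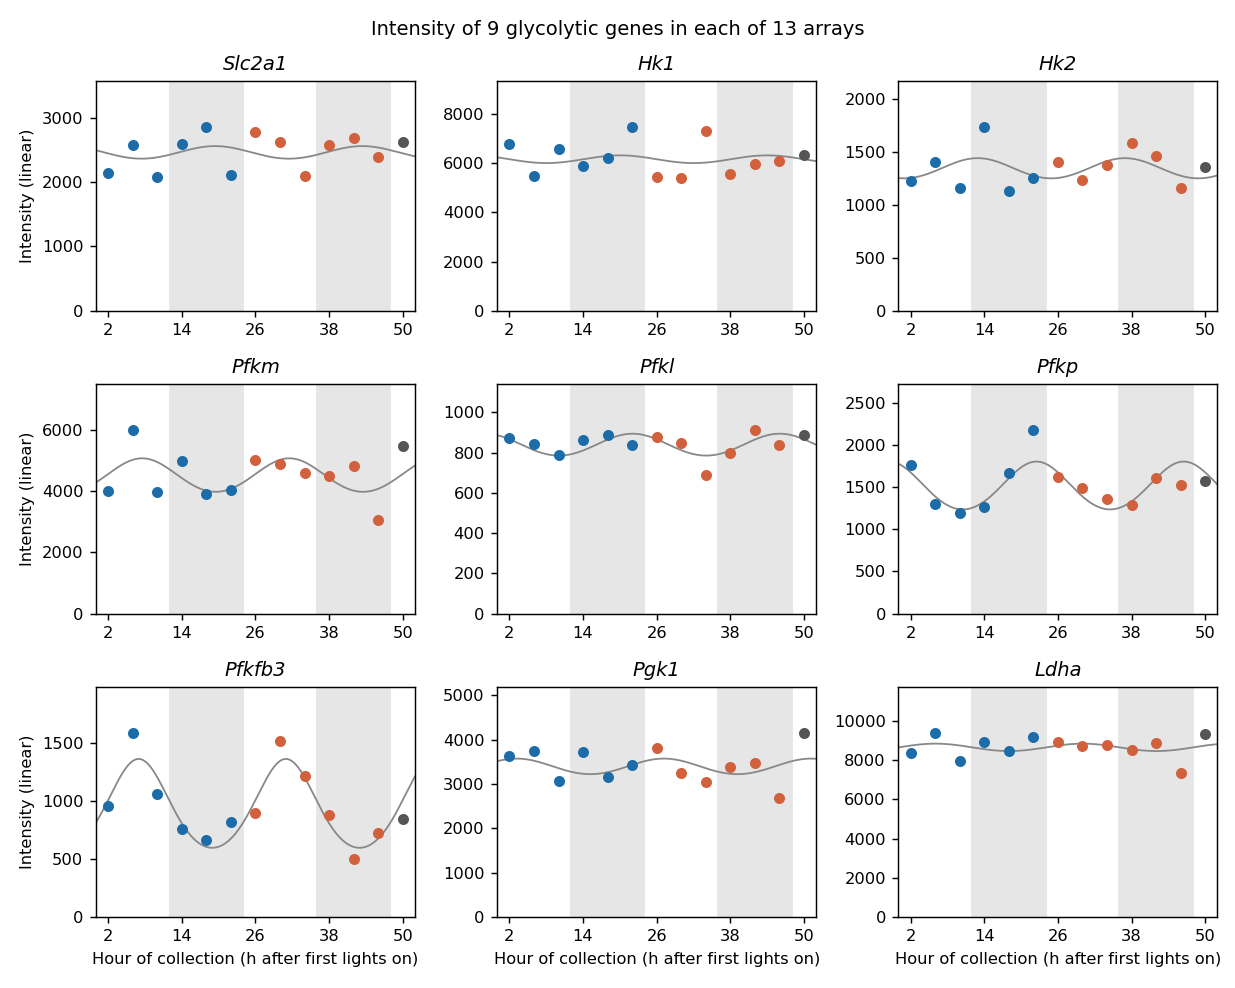
Intensity of each of the 9 genes (vertical axis of each panel, linear, arbitrary units) against the hour of collection, with 1 point for each array coloured by day, the fitted 24 h curve as a line and the dark hours shaded. Pfkfb3 rises to 1589 and 1517 at hours 6 and 30, and Pfkp has its highest array, 2174, at hour 22.

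Pfkfb3 encodes a bifunctional enzyme with far more kinase than phosphatase activity, which raises fructose 2,6-bisphosphate. From hour 2 to hour 22 its intensities were 956, 1589, 1061, 760, 662 and 817, and from hour 26 to hour 46 they were 897, 1517, 1221, 881, 503 and 725, with 845 at hour 50. The array at ZT6 was the highest and the array at ZT18 the lowest on each of the 2 days. By time of day its mean was 1553 ± 51.3 at ZT6 (SD, n = 2), 1141 ± 113 at ZT10 (n = 2), 899 ± 55.6 at ZT2 (n = 3), 820 ± 85.8 at ZT14 (n = 2), 771 ± 64.8 at ZT22 (n = 2) and 583 ± 113 at ZT18 (n = 2).

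The mean at ZT6 was 2.67 times that at ZT18. From highest to lowest mean, neighbouring times did not overlap between ZT6 and ZT10, between ZT10 and ZT2 or between ZT22 and ZT18. ZT14 overlapped both of its neighbours in that order, ZT2 and ZT22. The fitted difference of Pfkfb3 was 1.17 ± 0.15 in log2 (SE), with the peak at 6.96 ± 0.46 h after lights on and an adjusted p of 0.00278 from limma. With the 6 times of day as separate groups and no assumed shape, Pfkfb3 also passed, with an adjusted p of 0.0131. Without the array of hour 46 the Pfkfb3 difference was 1.20 with an adjusted p of 0.00520, and without the arrays of hours 2 and 46 together it was 1.21 with an adjusted p of 0.00634.

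Among the 318 called genes Pfkfb3 ranked 34th by fitted fold, and their median fold was 1.52. It had 13 called genes peaking within 1 h of it. The clock repressor gene Nr1d1 peaked 0.575 h later than Pfkfb3, at 7.54 ± 0.26 h with an 8.52-fold difference, and the intensities of both correlated at 0.88 over the 13 arrays, which share time of day. The tested genes whose arrays followed Pfkfb3 most closely were Tnfrsf11b, a decoy receptor for RANKL, with r = 0.921, Anxa7, a calcium-dependent membrane-binding annexin, with r = 0.914, and Col4a6, a basement membrane collagen chain, with r = 0.898, each over 13 arrays. Of these, Anxa7 was called, with an adjusted p of 0.0221 and a peak at 7.73 h, while Tnfrsf11b had an adjusted p of 0.0932 and Col4a6 of 0.0622. Next came Ctnnbip1, an inhibitor of beta-catenin, with r = 0.896, and the elongation factor gene Ell3 with r = 0.889, neither of them called. The fitted folds of these 5 genes ran from 1.22 for Col4a6 to 1.36 for Ell3. They were picked for the highest r among all genes tested, a choice that itself raises r, and their r values were not tested.

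Pfkp encodes the platelet-type phosphofructokinase subunit. From hour 2 to hour 22 it read 1760, 1296, 1195, 1263, 1666 and 2174, and from hour 26 to hour 46 it read 1619, 1492, 1362, 1283, 1610 and 1523, with 1565 at hour 50. All 6 arrays of ZT6, ZT10 and ZT14 lay at or below 1492, and all 7 arrays of ZT18, ZT22 and ZT2 lay at or above 1523. The hour 22 array of Pfkp stood well above its partner of hour 46. By time of day the mean was 1849 ± 460 at ZT22 (SD, n = 2), 1648 ± 101 at ZT2 (n = 3), 1638 ± 40.1 at ZT18 (n = 2), 1394 ± 139 at ZT6 (n = 2), 1279 ± 118 at ZT10 (n = 2) and 1273 ± 13.9 at ZT14 (n = 2).

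In that order, ZT18 and ZT6 were the neighbouring times of Pfkp that did not overlap, and all other neighbours overlapped. The fitted Pfkp difference was 0.54 ± 0.11 in log2 (SE), with the peak at 22.5 ± 0.76 h and an adjusted p of 0.0452 from limma. This call lies close to the threshold. Leaving out 1 array at a time ended it for 12 of the 13 arrays, and it was kept without the array of hour 46, where the difference was 0.63 and the adjusted p 0.0171. With the 6 times of day as separate groups the adjusted p of Pfkp was 0.466, and with the skeletal muscle markers as a covariate it was 0.139.

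Pfkp ranked 194th by fold among the 318 called genes, and 55 called genes peaked within 1 h of it. The clock activator gene Arntl, which encodes BMAL1, peaked at 22.2 ± 0.27 h, 0.298 h from Pfkp, and both correlated at 0.85 over the arrays. The closest genes by correlation were Pdia6, a disulfide isomerase of the endoplasmic reticulum, with r = 0.971 over 13 arrays, a 1.76-fold difference and a peak at 22.5 h, and Mdn1, a ribosome assembly ATPase, with r = 0.957. Macf1, a protein that links microtubules to actin, followed Pfkp with r = 0.952. Pdia6 was called with an adjusted p of 0.00403 and Macf1 with 0.0364, while Mdn1 had 0.0681. Selenoi, an enzyme of phospholipid synthesis, followed with r = 0.951 and an adjusted p of 0.0657, and the helicase gene Dhx29 with r = 0.940 and an adjusted p of 0.0388. These genes too were picked for the highest r among all genes tested, and their r values were not tested.

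The fitted peaks of Pfkfb3 and Pfkp lay 8.46 h apart, and their arrays correlated at -0.36. Fitted on each day alone, Pfkfb3 had a 2.08-fold difference with a peak at 6.09 h on day 1 and a 2.57-fold difference with a peak at 7.18 h on day 2. For Pfkp the same fits gave a 1.8-fold difference peaking at 22.3 h on day 1 and a 1.22-fold difference peaking at 23.8 h on day 2, with 6 arrays in each fit. A test of the rhythm between the days called 0 of the 9 genes, and 0% of all genes (0 of 14953 by limma, with 1919 at an unadjusted p under 0.05). Pfkp was the 1 gene of the 9 with an unadjusted p under 0.05, at 0.0136, and its adjusted p was 0.386.

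**Figure D2:**
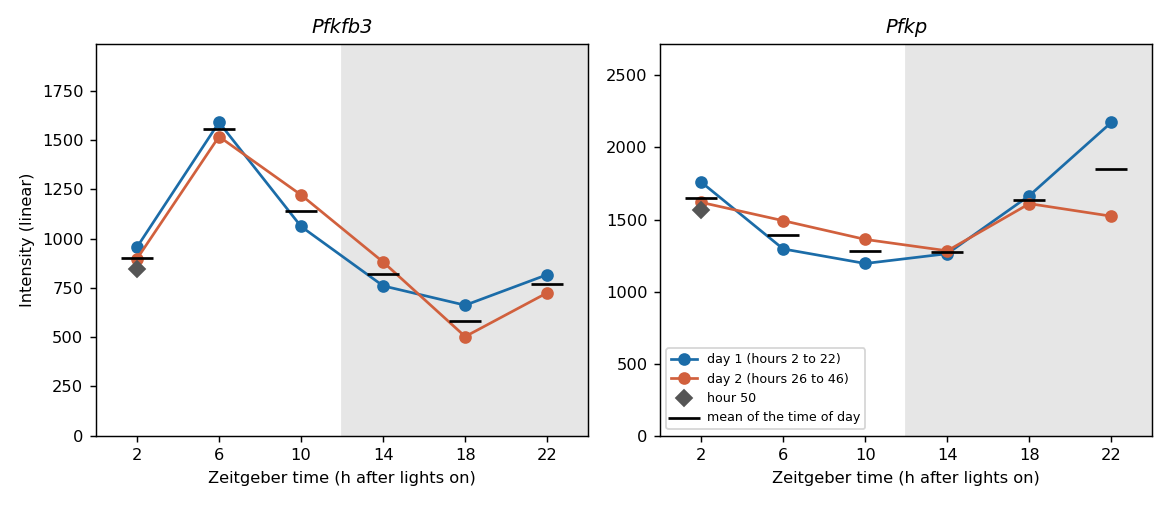
Intensity of Pfkfb3 and Pfkp (vertical axes, linear, arbitrary units) against time of day in hours after lights on, with day 1, day 2 and hour 50 marked apart, a dash for the mean of each time of day and the dark hours shaded. Pfkfb3 is highest at ZT6 on both days, and the 2 days of Pfkp are farthest apart at ZT22, with 2174 and 1523.

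The other phosphofructokinase subunits did not pass the 24 h test. Pfkl, the liver-type subunit, ran from 687 at hour 34 to 912 at hour 42, with a median of 847. Its lowest time was ZT10, with 738 ± 72.4 (SD, n = 2), and its highest ZT18, with 899 ± 18.4 (n = 2), and the fitted Pfkl difference was 0.18 ± 0.08 in log2 with an adjusted p of 0.339. Pfkm, the muscle-type subunit, read 3985, 5988, 3983, 4973, 3915 and 4032 from hour 2 to hour 22 and 4995, 4886, 4599, 4502, 4801 and 3067 from hour 26 to hour 46, with 5460 at hour 50. The highest Pfkm array was that of hour 6 and the lowest that of hour 46. Its arrays of 1 time of day lay far apart, so that ZT6 averaged 5437 ± 779 (SD, n = 2) and ZT22 averaged 3549 ± 682 (n = 2), and the fitted difference of 0.35 ± 0.17 had an adjusted p of 0.406.

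Pfkm rose and fell over the arrays with the markers of skeletal muscle. Its log2 intensity correlated with the muscle marker score, the mean over 23 markers of their standardised log2 intensities, at r = 0.953 over the 13 arrays (permutation p = 2.00e-05) and Spearman's rho = 0.907 (permutation p = 6.00e-05, both two-sided with 100000 permutations). This was the 1 correlation with a marker list that was tested, and the members and lists were chosen with earlier results of these data known. The permutations shuffled the arrays freely, which leaves out their order in time. Without the arrays of hours 18 and 46, the farthest from the median score, r was 0.921. Within day 1 r was 0.954 and within day 2 it was 0.951, over 6 arrays each. With the score as a covariate the fitted 24 h difference of Pfkm was 0.13 in log2 with an adjusted p of 0.598. The same covariate left Pfkfb3 called, at 1.30 with an adjusted p of 0.0119.

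**Figure D3:**
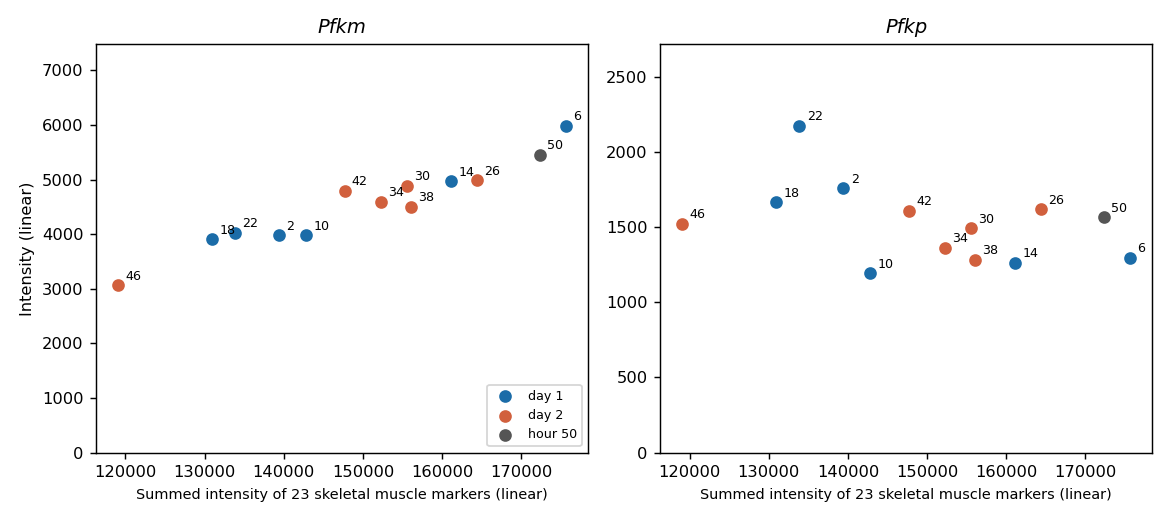
Intensity of Pfkm and of Pfkp (vertical axes, linear, arbitrary units) against the summed intensity of 23 skeletal muscle markers (horizontal axis, linear), 1 point for each array, labelled by its hour and coloured by day. Pfkm rises with the muscle markers, from 3067 at hour 46 to 5988 at hour 6, and Pfkp does not rise with them.

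The genes before and after the phosphofructokinase step were not called for a 24 h rhythm. With the times of day as separate groups, the highest time exceeded the lowest by 0.45 in log2 for Hk2, 0.40 for Slc2a1, 0.35 for Pgk1, 0.35 for Hk1 and 0.14 for Ldha, with adjusted p from 0.574 to 0.924 by limma. Slc2a1, the transporter also called GLUT1, ran from 2083 at hour 10 to 2859 at hour 18, with a median of 2577. It was lowest at ZT10, with 2093 ± 13.9 (SD, n = 2), where neither array overlapped those of ZT22, and highest at ZT18, with 2776 ± 116 (n = 2), where neither array overlapped those of ZT6 but the ZT2 array of hour 26, at 2782, lay between both. The fitted 24 h difference of Slc2a1 was 0.11 ± 0.13 in log2, with an adjusted p of 0.810.

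Hk2 encodes an insulin-responsive hexokinase. Its intensities were 1222, 1408, 1157, 1736, 1130 and 1253 from hour 2 to hour 22 and 1408, 1230, 1379, 1582, 1466 and 1159 from hour 26 to hour 46, with 1362 at hour 50. Both ZT14 arrays were above every other array. Their mean was 1659 ± 109 (SD, n = 2), and the next time, ZT2, averaged 1331 ± 96.9 (n = 3). The 24 h fit gave 0.20 ± 0.13 in log2 with an adjusted p of 0.545, and with the times of day as separate groups Hk2 was not called either.

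Hk1 encodes the hexokinase found in most tissues. By the rule its probe set read from 5398 to 7481, with a median of 6104 and a fitted 24 h difference of 0.07 ± 0.13 in log2 (adjusted p 0.910). That probe set is annotated through 1 accession, and the same accession is listed by 16 of the 17 probe sets annotated to Rpl17, a protein of the large ribosomal subunit. Over the 13 arrays it correlated with those 17 probe sets at 0.733 to 0.869. A second Hk1 probe set, annotated through RefSeq transcripts, correlated with them at -0.292 to -0.104, and with the first Hk1 probe set at -0.292. It ran from 1226 to 1529, was highest at ZT6 with 1514 ± 20.7 (SD, n = 2) and lowest at ZT14 with 1289 ± 89.8 (n = 2), and its 24 h difference was 0.11 ± 0.08 with an adjusted p of 0.565. The level of Hk1 is therefore uncertain, and neither probe set was called.

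**Figure D4:**
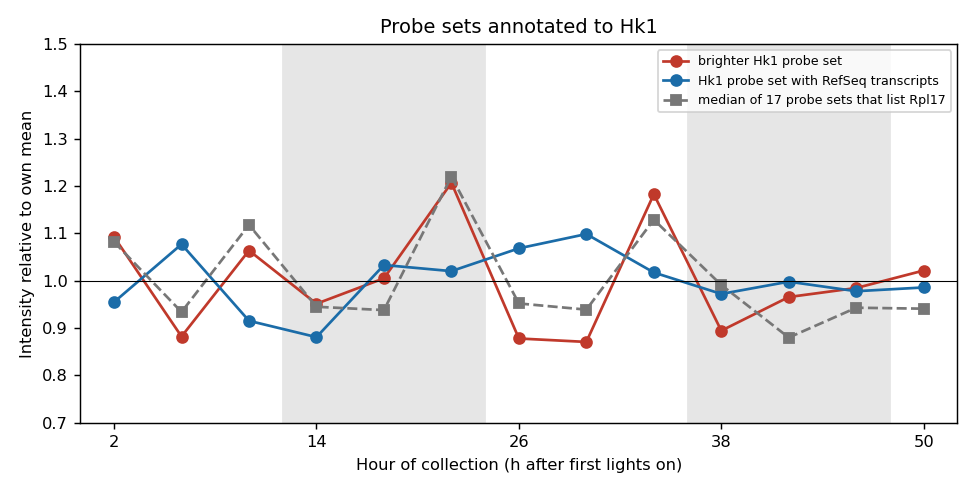
Intensity relative to the mean over the 13 arrays (vertical axis, ratio) against the hour of collection for both Hk1 probe sets and for the median of the 17 probe sets that list Rpl17. The brighter Hk1 probe set moves with the Rpl17 probe sets, whose median reaches 1.220 at hour 22, and the Hk1 probe set with RefSeq transcripts does not.

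Pgk1 makes the first ATP of the pathway. It read 3637, 3735, 3055, 3729, 3157 and 3426 from hour 2 to hour 22 and 3818, 3248, 3042, 3374, 3476 and 2691 from hour 26 to hour 46, with 4147 at hour 50. ZT2 was its highest time, with 3867 ± 258 (SD, n = 3), and ZT10 its lowest, with 3049 ± 9.24 (n = 2). The 24 h fit gave 0.15 ± 0.12 in log2 with an adjusted p of 0.673. The annotation gives 3 probe sets to Pgk1 alone, of which 2 are identical in every array and all lie within 1.71% of each other. The identical ones are not separate measurements, so this closeness is no independent check of the Pgk1 level.

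Ldha, the subunit that favours the making of lactate, ran from 7332 at hour 46 to 9384 at hour 6, with a median of 8802. Its means by time of day lay between 8248 ± 1295 at ZT22 (SD, n = 2) and 9061 ± 457 at ZT6 (n = 2). The fitted Ldha difference was 0.06 ± 0.09 in log2 with an adjusted p of 0.862. Among pairs of the 9 genes, Pfkm and Ldha had an r of 0.87, Pgk1 and Ldha 0.80 and Pfkm and Pgk1 0.77 over the 13 arrays. All 3 genes had their lowest array at hour 46, the array with the lowest summed muscle and the highest summed hair shaft markers. Hk1 and Slc2a1 had an r of -0.78, with the Hk1 probe set that moves with Rpl17.

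Light and dark were compared directly. Of the 9 genes 0 passed, and 3 of all 14953 genes did, or 0.0201% (limma, with 1238 at an unadjusted p under 0.05). Pfkfb3 ran from 845 to 1589 with a median of 1061 over the 7 light arrays and from 503 to 881 with a median of 743 over the 6 dark arrays, so the ranges overlapped between 845 and 881. Its dark minus light difference was -0.64 ± 0.16 in log2, with an unadjusted p of 0.00124 and an adjusted p of 0.343 by limma. This Pfkfb3 value was the 1 difference among the 9 genes with an unadjusted p under 0.05, and it kept its sign in all 24 alternatives with adjusted p from 0.116 to 0.702. Pfkp ran from 1195 to 1760 in the light and from 1263 to 2174 in the dark, with a difference of 0.10 ± 0.12. Pfkm had a difference of -0.20 ± 0.12 with an adjusted p of 0.677, and 0.04 with the muscle marker score as a covariate. Light and dark ranges overlapped for all 9 genes, and the share of all genes tested with such an overlap was not computed.

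**Figure D5:**
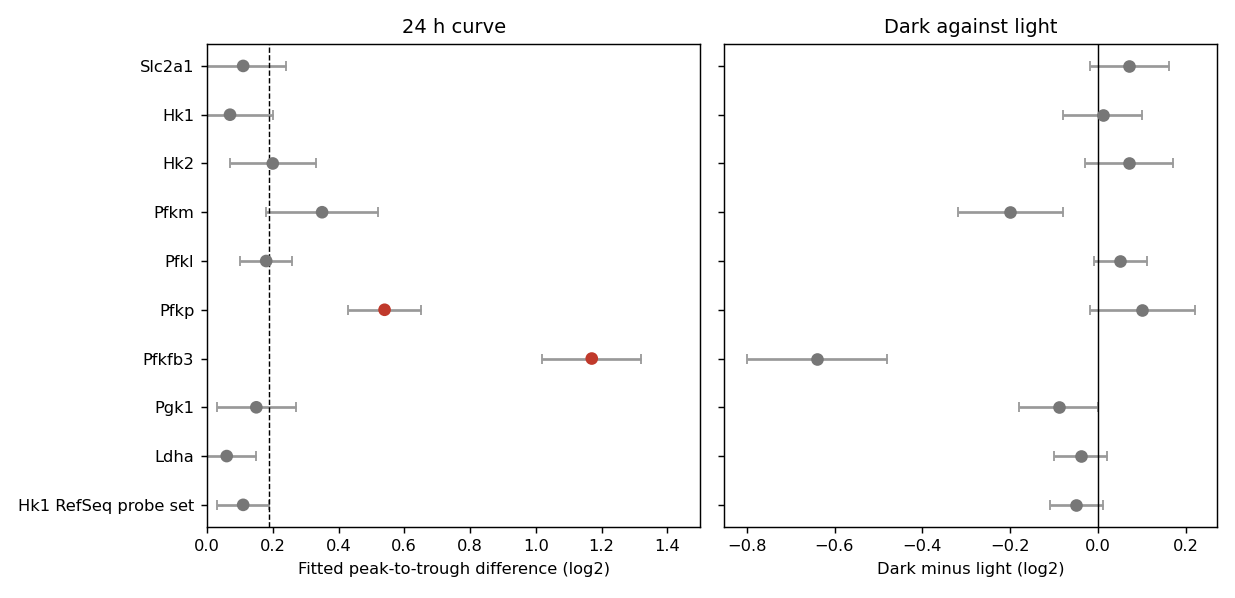
Fitted 24 h peak-to-trough difference (left) and dark minus light difference (right) of each of the 9 genes and of the RefSeq Hk1 probe set on the log2 scale, as points with bars of 1 SE. Called genes are red and the dashed line is the median of all genes tested, 0.19. Pfkfb3 (1.17) and Pfkp (0.54) are the called genes on the left, and none of those plotted is called on the right.

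Day 2 was compared with day 1 over the 12 arrays of hours 2 to 46, paired by hour. Of the 9 genes 0 passed, with 0 at an unadjusted p under 0.05, and 0% of all genes passed (0 of 14953, with 976 at an unadjusted p under 0.05, by limma). The differences of the 9 genes lay between -0.10 ± 0.07 for Hk1 and 0.08 ± 0.07 for Slc2a1 in log2.

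A 12 h component was tested beside the 24 h pair. Of the 9 genes 0 passed, and 0% of all genes (0 of 14953, with 817, or 5.46%, at an unadjusted p under 0.05, by limma). An unadjusted p under 0.05 was reached by 4 of the 9 genes. These were Slc2a1 with 0.37 ± 0.09 in log2 from peak to trough, Pgk1 with 0.33 ± 0.10, Pfkm with 0.41 ± 0.14 and Hk1 with 0.30 ± 0.11. The unadjusted p of Slc2a1 was the lowest, at 0.00769. With the muscle marker score as a covariate the difference was 0.15 for Pfkm, 0.14 for Pgk1, 0.32 for Slc2a1 and 0.33 for Hk1. Without that covariate all 4 had an adjusted p of 0.863 by limma. The first peak was at 4.49 h for Slc2a1, 4.15 h for Pfkm and 3.13 h for Pgk1, but at 10.4 h for Hk1. The adjusted p of Slc2a1 ranged from 0.173 to 0.999 over the alternatives. The means of Slc2a1 were lowest at ZT10 and ZT22, with 2093 ± 13.9 and 2253 ± 199 (SD, n = 2 each), and those of Pgk1 were lowest at the same times, with 3049 ± 9.24 and 3059 ± 520. Through its RefSeq probe set Hk1 had 0.15 ± 0.07 in place of 0.30 with an unadjusted p of 0.153, which leaves 3 genes in that count.

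The rest of glucose metabolism was read from 7 lists of other genes. Of 79 tested genes in those lists 2 were called for a 24 h rhythm, or 2.53%, and 25 had an unadjusted p under 0.05. Over all 14953 genes tested, 2.13% were called and 18.6% had an unadjusted p under 0.05. The remaining steps of glycolysis had 0 of 13 called, and Gapdh and Eno1 were among the listed genes that were not measured. Nearest to the threshold were Pgam1, a phosphoglycerate mutase, with 0.37 in log2, a peak at 20.6 h and an adjusted p of 0.149, and the aldolase Aldoc with 0.37, a peak at 6.36 h and an adjusted p of 0.166. The other makers and removers of fructose 2,6-bisphosphate and the fructose bisphosphatases had 0 of 5 called, and Pfkfb4, another member of the Pfkfb family, had a 1.15-fold difference with an adjusted p of 0.306. Tigar, which removes fructose 2,6-bisphosphate, had an adjusted p of 0.319.

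Transporters of glucose and lactate had 0 of 12 called, with the glucose transporter Slc2a3 at an adjusted p of 0.0970 and the fructose transporter Slc2a5 at 0.187. Pyruvate dehydrogenase and its regulators had 0 of 12 called. Pdk4, a kinase that turns pyruvate dehydrogenase off, averaged 5600 ± 942 at ZT6 (SD, n = 2) and 1534 ± 193 at ZT22 (n = 2), and its fitted 2.75-fold difference peaked at 8.09 h with an adjusted p of 0.170. Pdp1, a phosphatase that turns pyruvate dehydrogenase on, had an adjusted p of 0.229. The pentose phosphate list held 7 genes, of which G6pdx was not measured and 0 of the 6 tested were called. The transketolase Tkt had an adjusted p of 0.0536 and a peak at 22.9 h, and the dehydrogenase Pgd 0.0737 and 21.5 h. Both have peaks in the hours around that of Pfkp, with no test of that closeness.

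In the list of gluconeogenesis and glycogen genes 1 of 16 was called, Ppp1r3c, which targets protein phosphatase 1 to glycogen, with a 3.55-fold difference, a peak at 21.1 h and an adjusted p of 0.0334. Among hypoxia-responsive genes 1 of 15 was called, the mitophagy receptor gene Bnip3, with a 1.54-fold difference, a peak at 10.8 h and an adjusted p of 0.00855. Pfkfb3 is itself known as a target of hypoxia-inducible factor, and its fitted peak was at 6.96 h. All 10 clock genes used as a reference were called, with a median of 2.50 in log2 from peak to trough, above the 1.17 of Pfkfb3 and the 0.54 of Pfkp.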

How the data were processed

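The data are Affymetrix whole-transcript array profiles of 13 pooled RNA samples of whole back skin. The authors deposited linear probe set intensities. The submitters' processing notes name the software PLIER 2.0 and Affymetrix Expression Console 1.1.1. How arrays were normalized to each other, and the genome build, were not given in the sources used here. Precision is limited by the number of arrays.

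The platform annotation gave a single gene to 21789 of the 35557 probe sets, several genes to 1621 and no entry to 12147. Symbols were updated through the RefSeq gene table for the 21698 whose identifier it holds. A gene with several probe sets was read from the one with the highest mean. Intensities were analysed as log2(intensity + 16), so folds of dim genes are understated, and the dimmest 25% of genes by mean were left out. Gpi1 was not analysed here, since no probe set is listed for it in the annotation used.

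Tests were run over all 14953 genes with limma 3.58.1 (R 4.3.3) and Benjamini-Hochberg adjustment, after a check on simulated data: a 24 h cosine and sine pair, dark minus light, day 2 minus day 1 with time of day as a factor, a term for day by 24 h pair, and a 12 h pair beside the 24 h pair. Standard errors of peak times come from the delta method. A gene was called at an adjusted p under 0.05. Array groups came from the labels, ZT14, ZT18 and ZT22 being dark.

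Named genes were the 10 members, the genes of each pathway list that were called (otherwise the 2 with the smallest p), and the 5 genes most correlated with Pfkfb3 and with Pfkp. Of the clock list, Nr1d1 is given as a reference for Pfkfb3 and Arntl for Pfkp, a choice made after seeing their values. Nr1d1 was the clock gene nearest in fitted peak to Pfkfb3. Arntl was not the nearest to Pfkp, since the fitted peak of Clock, 22.3 h, lay closer to 22.5 h than the 22.2 h of Arntl. The members and lists were chosen with earlier results of these data known. Alternatives changed the offset (1 or 64), the filter (none or 50%), the normalization, the probe set rule, the arrays left out, the covariates (the mean standardised log2 intensity of muscle or of hair shaft markers), the shape of the rhythm and the collection day as a block. Reading Hk1 through its RefSeq probe set was added after seeing the data. Promoter sequences and coordinates are from RefSeq on GRCm38.p6, and all 10 genes matched.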

Additional observations from a re-analysis of the deposited data

Results flagged for a closer look

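Ldha had 1 dark array far below the others. The array of hour 46 read 7332 and the next lowest of the 6 dark arrays, that of hour 18, read 8450, with the highest at 9164. On the log2 scale used for the tests this gap made up 0.636 of the whole range of the dark arrays, above the critical share, and on the linear scale it made up 0.610, below it. Of 18 groups tested (light and dark arrays of the 9 genes) this was the 1 so far apart, and chance alone sets apart about 1 in 20 such groups. The same array had the highest summed hair shaft markers, 33705, and the lowest summed muscle markers, 119090, and their part in the Ldha value was not tested.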

How the results depend on the processing

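The 24 h call of Pfkfb3 held in all 25 alternatives, with differences from 1.06 to 1.40 in log2 and adjusted p from 0.00191 to 0.0133. The call of Pfkp was lost in 16 of 25, and the cause was not tested. Its difference was 0.54 with no filter on dim genes (adjusted p 0.0634), 0.51 with the muscle covariate (0.139), 0.51 with time of day as a factor (0.466), 0.56 with collection day as a block (0.0745) and 0.43 to 0.63 when leaving out 1 array at a time. The number of the 9 genes called for a 24 h rhythm was then 1 in place of 2 under each of those 4 settings, and 1 to 2 when leaving out 1 array. Over all genes tested, 24 h calls numbered 318, with 44 under time of day as a factor, 165 under the muscle covariate, 528 under the hair shaft covariate and 128 to 422 when leaving out 1 array.

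Differences that changed sign were all uncalled. For dark minus light, the muscle covariate gave -0.01 for Pfkp, 0.04 for Pfkm (-0.20 without it), -0.07 for Hk1, 0.03 for Pgk1 and 0.04 for Ldha. Leaving out 1 array gave Ldha values from -0.06 to 0.00. Hk1 was -0.02 with the mean of its probe sets, -0.05 with its RefSeq probe set and as low as -0.05 without 1 array (ZT22 replicate 1), with -0.02 without ZT6 replicate 1, ZT2 replicate 2 or ZT6 replicate 2. Ldha was 0.00 without ZT22 replicate 2 and with the hair shaft covariate.

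For day 2 minus day 1, Pfkfb3 was 0.02 without either ZT18 array, and -0.10 to 0.02 over all single arrays left out. For Pfkp that range was -0.09 to 0.05. Without either ZT22 array Pfkp was 0.05, Pfkm 0.08 and Ldha 0.03. Without the arrays of hours 2 and 46, Pfkp was 0.09, Pfkm 0.02, Ldha 0.01 and Slc2a1 -0.01. With the hair shaft covariate Pfkp was 0.04, Pfkm 0.05 and Ldha 0.01. Pfkm was 0.06 without either ZT6 array, 0.03 without either ZT14 array and 0.01 after quantile normalization or a shift to 1 median. Hk1 was 0.06 through its RefSeq probe set. For the 12 h component, 191 genes were called without ZT10 replicate 1, against 0 with all arrays, and 0 of them were among the 9 genes.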
